A study of Danio rerio with 47 samples.

Results

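Developing trunks of zebrafish that had lost most of their germ cells were compared with wild-type trunks at 14 days post fertilization (dpf). The comparison holds 23 of the 47 arrays of the series, chosen by age and genotype in the labels. Of these, 9 carried dnd morphants, fish injected as embryos with an antisense morpholino against dnd, and 14 carried wild-type fish. Screening at 24 hours post fertilization put the morphants in a low class with 1 to 9 primordial germ cells, a range for the whole group and not a value per array. All fish were reared at 28 °C. The labels count 10 replicates for the morphants, while the series holds 9 morphant arrays of 14 dpf, all of them used here. The arrays are labelled as biological replicates, but 1 fish or pooled fish per array is not stated, so the p-values measure the spread between these arrays. The 10 morphant and 14 wild-type arrays of 22 dpf enter for the morphant effect at that age, its difference from the effect at 14 dpf, and 1 alternative fit.

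The dnd gene encodes an RNA-binding protein of the germ plasm that primordial germ cells need for their migration and survival, and fish without it have few or no germ cells. Germ cells share a set of transcripts that other cells hardly use. Some serve the translation and storage of RNA, some serve the piRNA pathway, in which Piwi proteins loaded with small RNAs silence transposons, and some build the chromosome axis of meiosis. Zebrafish first form a juvenile ovary whatever their later sex, and fish that lose their germ cells develop as males.

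Each row of the array was given as a log2 intensity, with 1 colour per array, for 31475 rows. The median over rows lay between 7.26 and 7.57 on the arrays of 14 dpf and the lower quartile between 5.42 and 5.48, so values near 5 are dim, and no detection call per row was used. Where most values of a group are dim, a difference has no exact fold, also where this is not repeated below. Arrays have no read depth, and their number limits the precision. Among the 127 pairs of arrays within a group, morphant arrays 5 and 13 stood apart. Over 13751 bright rows (mean of 8 or more), their deviations from the group average had a correlation of 0.644, and the next pair, wild-type arrays 6 and 7, had 0.373. Whether arrays 5 and 13 share fish or RNA is not given by the labels, so every call below was also made with their mean as 1 array. The title numbers of the arrays fall into 1 to 12 and 13 onward, each with morphants (5 and 4) and wild type (7 and 7), and values within these number groups are given for selected genes and lists. Skeletal muscle and epidermal markers were bright on every array, such as actc1b, a muscle actin, with at least 15.09 in morphants and at least 15.03 in wild type.

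A difference is the morphant mean less the wild-type mean in log2 units, given with the standard error (SE) of a limma fit of the 23 arrays and a p-value adjusted by Benjamini and Hochberg over all rows. A row was called at an adjusted p below 0.05. By this rule 195 rows differed (0.62%), 57 of them higher in morphants (0.181%) and 138 lower (0.438%). With arrays 5 and 13 averaged the counts were 11 higher (0.0349%) and 71 lower (0.226%), and 11 and 69 rows were called both ways. The median difference over all rows was -0.01. Called falls had a median size of 1.62 log2 units, between 0.59 and 5.28. Called rises had a median size of 1.18, between 0.41 and 4.19. On 9 rows every morphant array lay below every wild-type array (0.0286% of rows), and on 6 every morphant array lay above (0.0191%), together 0.0477%. Among title numbers 1 to 12 alone 3 rows were called (0.00953%), and from 13 onward 84 (0.267%). At an unadjusted p below 0.05, 2183 rows were higher in morphants (6.94%) and 2209 lower (7.02%), and 15351 rows of all lay above 0, the background for the list counts at that threshold. Counts at the unadjusted threshold, here and below, were made only with arrays 5 and 13 as separate arrays. The shares of 0.181% higher and 0.438% lower are the background for counts of called members in a list. Lists were chosen with earlier results of these data known, so a higher share in a list is a description and not a test.

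The piRNA pathway held the most called falls of any list. Of 24 listed genes 19 had a row, of which 9 fell, 0 rose and 10 did not pass, beside 0.438% of all rows called lower. The median difference over the 19 was -1.42. The largest fall was that of tdrd9, a Tudor-domain helicase needed for transposon silencing. Its morphant arrays had 5.003 at the lowest, 6.23 at the median and 10.15 at the highest, against 7.70, 11.05 and 12.34 in wild type. The groups overlapped, with 5 of 9 morphant arrays below every wild-type array, and the difference was -3.85 ± 0.58 (adjusted p = 0.00258). In bulk trunks, fewer germ cells and less RNA per germ cell cannot be told apart.

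Other falls covered successive steps of the pathway. The gene mov10l1 (listed as zgc:154086) encodes the helicase that hands piRNA precursors on for processing. It had 7.06, 7.67 and 10.96 in morphants as lowest, median and highest, against 9.46, 10.93 and 11.78 in wild type, a difference of -2.39 ± 0.41 (adjusted p = 0.00734). The mitochondrial enzyme gene pld6, which acts in the cutting of precursors, differed by -2.12 ± 0.38 (adjusted p = 0.0123), with 8 of 9 morphant values under the whole wild-type range. Most morphant values of pld6 were at the dim end, so its difference has no exact fold. The Tudor-domain genes tdrd5 (-2.19 ± 0.41), rnf17 (-2.08 ± 0.38), tdrd6a (-1.90 ± 0.35) and tdrd1 (-1.86 ± 0.34) had adjusted p-values between 0.0123 and 0.0146. Their products are scaffolds of the granules in which piRNAs are made. All morphant arrays of tdrd6a lay at 5.41 or below, at the dim end, so its difference has no exact fold.

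Both zebrafish Piwi genes fell as well. For piwil2 the morphant arrays lay between 5.23 and 7.53 with a median of 6.12, against 6.56 to 9.71 with a median of 7.94 in wild type (-1.73 ± 0.35, adjusted p = 0.0213). Its call was lost without morphant array 14 or 16, with an adjusted p of at most 0.0528. For piwil1 the morphants spanned 5.16 to 7.98 around a median of 5.67, against 6.18 to 9.23 around 7.60 in wild type, a difference of -1.62 ± 0.34 (adjusted p = 0.0272). The call of piwil1 was lost with arrays 5 and 13 averaged (adjusted p = 0.0601) and without morphant array 1, 5, 13 or 14 (at most 0.0652). Of the members that did not pass, asz1 differed by -1.42 (adjusted p = 0.0992), tdrd7a by -1.19 (adjusted p = 0.0539) and the paralogue tdrd7b by 0.63 (adjusted p = 0.469). With arrays 5 and 13 averaged 8 members of the pathway fell, all but piwil1 of the 9.

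Among germ plasm components and regulators of germ cell RNA, 18 of 21 listed genes had a row. Of these 3 fell, 0 rose and 15 did not pass, beside 0.438% of all rows called lower. The median was -0.53, and the same number of falls held with the pair averaged. The germ cell helicase ddx4 (listed as vasa), a core component of germ granules, had 6.05 at the lowest, 7.10 at the median and 10.92 at the highest in morphants, against 6.60, 10.35 and 12.12 in wild type. Morphant array 3 was the highest of its group and wild-type array 20 the lowest of its own, and only 2 of 9 morphant arrays lay below every wild-type array. The difference was -2.84 ± 0.55 (adjusted p = 0.0174). The translation regulator dazl had 4.84, 5.03 and 6.18 in morphants, against 5.96, 7.14 and 8.57 in wild type, with 8 of 9 morphant arrays below every wild-type array (-1.86 ± 0.29, adjusted p = 0.00299). Apart from array 3 at 6.18, the dazl values of morphants were at the dim end, so that difference has no exact fold. The third fall was that of tdrd6a, which is also in the piRNA list.

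The targeted transcript itself, dnd1 (listed as dnd), did not pass. Its morphant arrays had 4.75, 5.86 and 7.23 as lowest, median and highest, against 4.94, 7.26 and 9.71 in wild type (-1.28 ± 0.50, adjusted p = 0.244). All 9 morphant values were under the wild-type median, and the groups overlapped widely. In bulk trunks, fewer germ cells and less dnd1 RNA per germ cell cannot be told apart, so the dnd1 level does not check the knockdown. The labels also do not say whether the morpholino acts on translation or splicing. The gene nanos3, a translational repressor of germ cells, had a value on the other side of 0. It had 5.41, 6.41 and 7.27 in morphants, against 4.28, 5.26 and 6.65 in wild type (0.92 ± 0.28, adjusted p = 0.123), with 9 of 9 morphant values over the wild-type median.

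**Figure D1:**
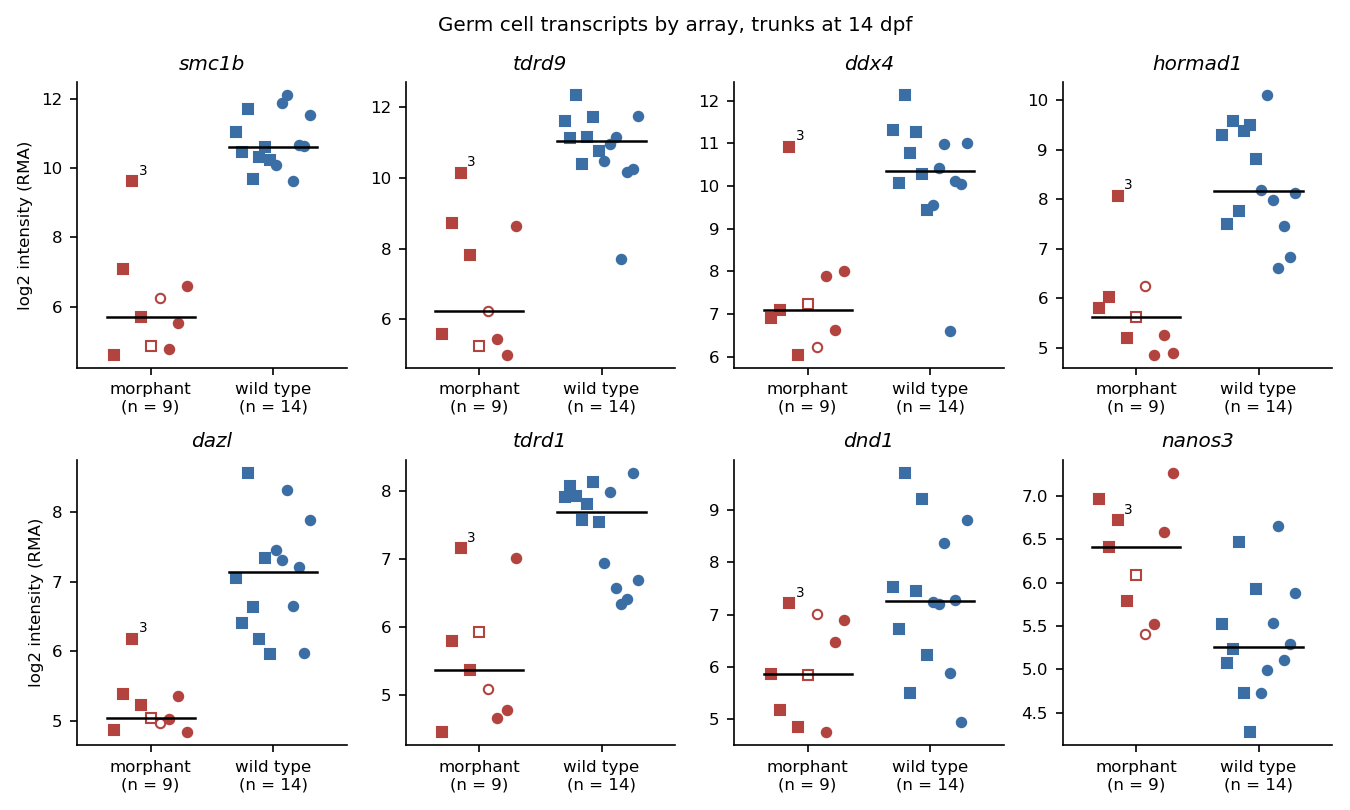
Log2 intensity (RMA) of 8 germ cell transcripts on each array of 14 dpf, with 9 morphant arrays on the left and 14 wild-type arrays on the right of each panel. Squares are arrays with title numbers up to 12, circles those from 13, open symbols are morphant arrays 5 and 13, the label marks morphant array 3, and the bar is the group's median. For smc1b and dazl 8 of 9 morphant arrays lie below all wild-type arrays, for ddx4 array 3 reaches 10.92, and for nanos3 all 9 morphant points are over the wild-type bar at 5.26.

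Genes of the meiotic chromosome axis fell on some of their members. Of 18 listed genes 12 had a row, of which 3 fell, 0 rose and 9 did not pass (median -0.85), again 3 with the pair averaged. The share of all rows called lower was 0.438%. The gene smc1b, a cohesin subunit specific to meiosis, had 4.62, 5.72 and 9.64 in morphants as lowest, median and highest, against 9.62, 10.62 and 12.10 in wild type. Without array 3 the groups would not overlap, since 8 of 9 morphant arrays lay below every wild-type array. The difference was -4.64 ± 0.47 (adjusted p = 9.04e-06), with 3 morphant arrays under 5, at the dim end, so its size has no exact fold. Within the number groups it was -4.20 (numbers 1 to 12) and -5.15 (13 onward).

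The axis protein gene hormad1 followed with 4.86, 5.63 and 8.07 in morphants, against 6.60, 8.16 and 10.09 in wild type (-2.59 ± 0.43, adjusted p = 0.00545). The gene sycp2, whose product is part of the synaptonemal complex that joins paired chromosomes, had 5.61, 6.01 and 6.68 in morphants, against 6.49, 7.63 and 9.53 in wild type (-1.83 ± 0.30, adjusted p = 0.00466). For both genes 8 of 9 morphant arrays lay below every wild-type array. The other synaptonemal genes sycp1 (-0.44 ± 0.23, adjusted p = 0.388) and sycp3 (-0.72 ± 0.44, adjusted p = 0.487) did not pass, and their wild-type arrays spanned 5.75 to 7.92 and 4.75 to 9.42.

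Genes that make or repair the breaks of meiotic recombination had no call in the limma fit. All 15 measured members did not pass, with a median of -0.38 and 13 of 15 below 0, and 5 of 15 were lower at an unadjusted p below 0.05, against 7.02% of all rows. The smallest p-values were those of spo11, the enzyme that makes the breaks (-1.30 ± 0.36, adjusted p = 0.092), and tex11 (-1.11 ± 0.32, adjusted p = 0.112), which was called without wild-type array 17 (-1.29, adjusted p = 0.0255). The strand exchange recombinase dmc1 had 4.73 to 6.30 in morphants and 4.38 to 9.30 in wild type (-0.98 ± 0.46, adjusted p = 0.342). Likewise 0 of 14 measured germline stem cell markers passed (median -0.11), of which 2 were lower at an unadjusted p below 0.05, zbtb16b (-1.07, adjusted p = 0.246) and lin28ab (-0.62, adjusted p = 0.273). Taking each gene of the germ plasm, piRNA, axis and recombination lists once, 14 of 61 fell and 0 rose, 13 of the 14 also with the pair averaged. The share of all rows called lower was 0.438%. Of the 61 differences 51 lay below 0, beside 16124 of 31475 rows.

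Morphant array 3 often held the highest value of its group. It did so for 10 of the 14 called genes of these germ cell lists, and for 47 of all 138 rows called lower. Its ddx4 value of 10.92 lay above the wild-type median of 10.35, and its smc1b value of 9.64 just above the lowest wild-type array at 9.62. Leaving array 3 out gave 191 called falls and 95 called rises. On the wild-type side array 20 was lowest for 7 of the 14 germ cell genes, and array 12 was lowest for 31 of the 138 rows. Leaving out wild-type array 12 gave 211 falls and 116 rises, and leaving out wild-type array 20 gave 95 and 26.

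Beyond the listed genes, the largest fall on the array was that of si:ch73-167f10.1 (listed as loc100329648). All 9 morphant arrays lay below all 14 wild-type arrays, with 4.37, 5.53 and 8.84 as lowest, median and highest in morphants, against 8.86, 11.44 and 12.51 in wild type. The difference was -5.28 ± 0.55 (adjusted p = 1.02e-05), where 7 of 9 morphant arrays were at 5.76 or below, at the dim end, so it too has no exact fold. The groups also did not overlap for si:dkey-34o23.3 (4.71 to 6.497 in morphants, 6.77 to 9.06 in wild type, -2.57 ± 0.29, adjusted p = 3.01e-05) and zgc:92591 (4.25 to 5.36 in morphants, 5.73 to 9.52 in wild type, -2.48 ± 0.40, adjusted p = 0.00466). All 9 morphant arrays of zgc:92591 lay at 5.36 or below, at the dim end, so its difference has no exact fold either. No function is given for these 3 genes in the tables used.

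Further large falls were those of zgc:103482 (-3.58 ± 0.54), tfpil (-2.72 ± 0.51), LOC100332443 (-2.71 ± 0.45) and tuba7l, an alpha tubulin gene (-2.55 ± 0.47). The gene adad1, which in mouse encodes a testis RNA-binding protein, differed by -2.67 ± 0.46 (adjusted p = 0.00667), with 4.11 to 7.19 in morphants and 5.20 to 9.22 in wild type. Most morphant values of adad1 were at the dim end, so its difference has no exact fold. All of these genes kept their call in every fit that left out 1 array and with the pair averaged. The fall of the row loc567550 (-2.75 ± 0.56, adjusted p = 0.0231) was lost without morphant array 1, 13, 14 or 16 (adjusted p of at most 0.055).

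**Figure D2:**
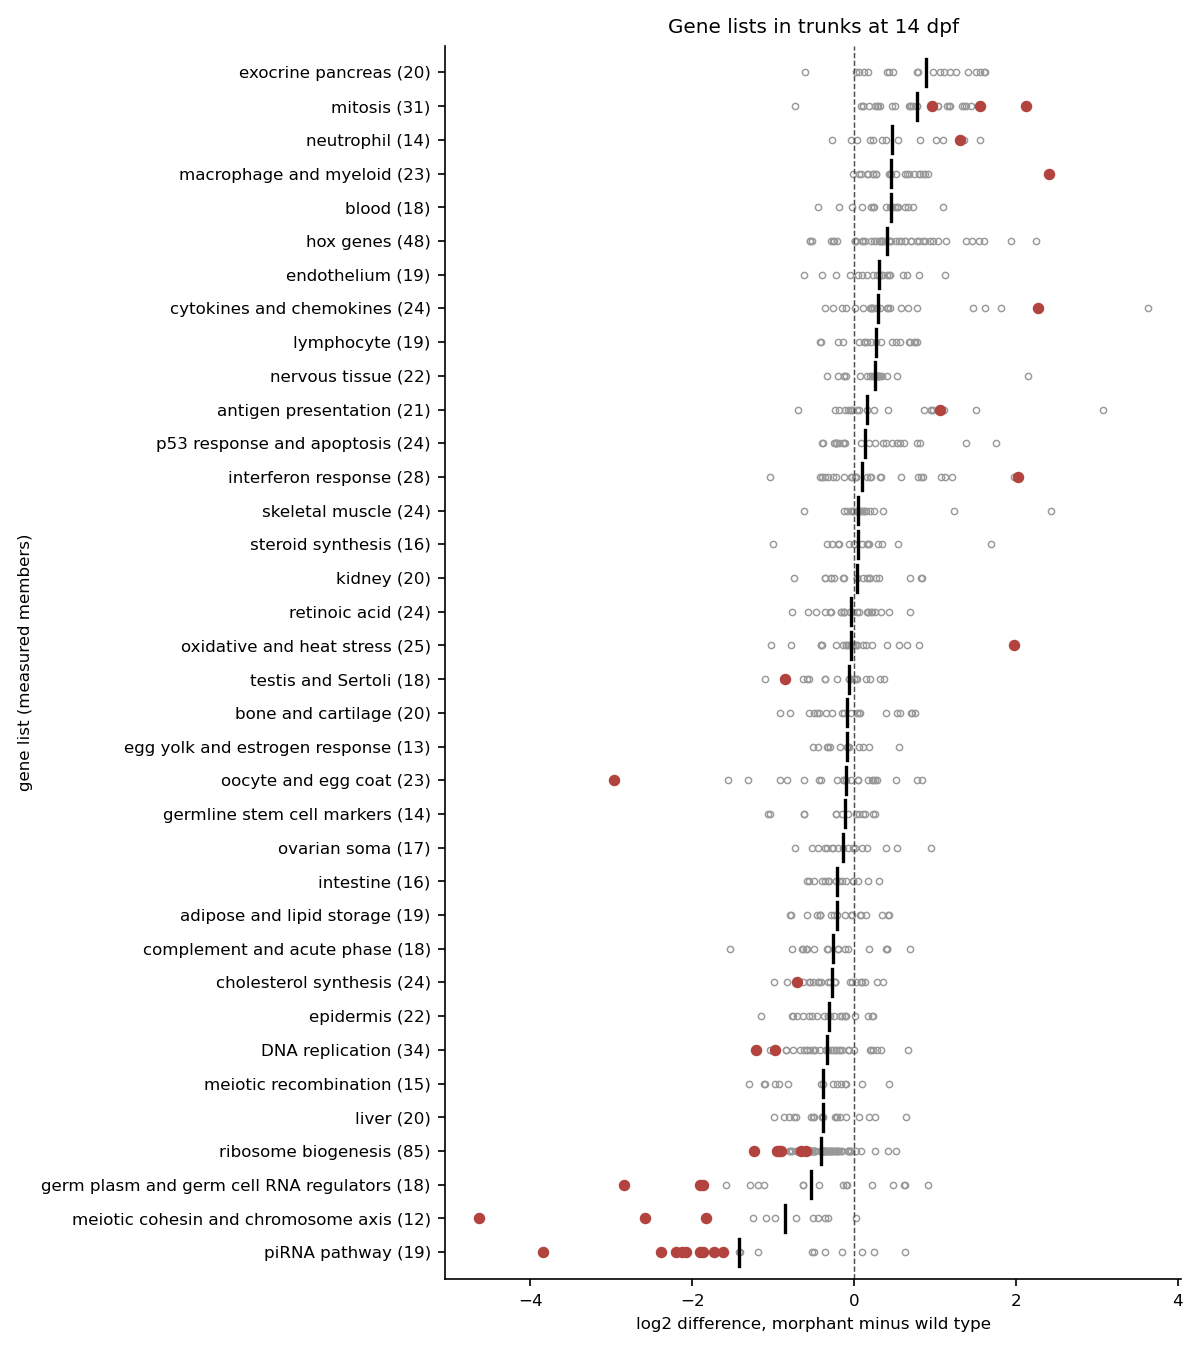
Difference between morphant and wild-type trunks at 14 dpf (log2, horizontal axis) for every measured member of 36 gene lists, ordered from the highest median at the top to the lowest at the bottom. Filled points passed an adjusted p of 0.05, open points did not, and the bar is the median of the list. The piRNA list lies lowest with a median of -1.42 and 9 filled points, and 3 filled points of the mitosis list lie between 0.96 and 2.13.

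The oocyte list gave 1 call at this age, and many of its genes were at the dim end of the scale. The oocyte-linked genes eif4e1b and tbpl2 are outside the list, and their called falls are given under other observations. On a mean over the measured members all 9 morphant arrays were under the wild-type median, and 3 were under every wild-type array. The medians of that mean were 5.87 in morphants and 6.14 in wild type, and the called gene is part of it. Of 23 differences 13 lay below 0 and 10 above. At an unadjusted p below 0.05 in limma 3 members were lower and 1 higher, beside 7.02% and 6.94% of all rows. Of 31 listed genes 23 had a row, 1 fell and 22 did not pass, with a median of -0.09. The exception was org, the oogenesis-related gene, with 4.07, 5.13 and 8.14 in morphants as lowest, median and highest, against 6.37, 8.54 and 10.25 in wild type (-2.97 ± 0.50, adjusted p = 0.00552), where 7 of 9 morphant arrays lay below every wild-type array. Most morphant values of org were at the dim end, so its difference has no exact fold. The egg coat gene zp3 had 4.86 to 6.54 in morphants and 4.84 to 7.99 in wild type (-0.09 ± 0.32, adjusted p = 0.925). The oocyte transcription factor gene figla had 4.14 to 7.47 in morphants and 3.99 to 8.47 in wild type (0.84 ± 0.47, adjusted p = 0.434). The maternal factor zar1 (-0.14 ± 0.25) and the oocyte growth factors gdf9 (0.04 ± 0.29) and bmp15 (-0.21 ± 0.45) had adjusted p-values of 0.841, 0.963 and 0.871.

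Genes of the somatic gonad gave 1 call. Among 18 genes of testis and Sertoli cells 1 fell (median -0.06), beside 0.438% of all rows called lower. At an unadjusted p below 0.05 in limma 3 of 18 were lower and 0 higher, beside 7.02% and 6.94% of all rows. On the mean of this list 8 of 9 morphant arrays were under the wild-type median, and 3 were under every wild-type array. The called gene was the androgen receptor gene ar, with 10.08, 10.77 and 11.40 in morphants as lowest, median and highest, against 11.02, 11.61 and 12.36 in wild type (-0.86 ± 0.18, adjusted p = 0.0336). The transcript ar is also made outside the gonad, and its call was lost with the pair averaged (adjusted p = 0.0744) and in 9 of 23 fits that left out 1 array (at most 0.0749). Within the number groups the difference was -0.53 (1 to 12) and -1.21 (13 onward). The male determinant dmrt1 had 5.11 to 5.97 in morphants and 5.33 to 6.72 in wild type (-0.63 ± 0.16, adjusted p = 0.0625), and was called without wild-type array 12 (adjusted p = 0.0495) or 22 (adjusted p = 0.023). The Sertoli cell genes amh (0.03 ± 0.30), gsdf (-1.098 ± 0.41) and sox9a (-0.56 ± 0.29) did not pass either, with adjusted p-values of 0.973, 0.227 and 0.406.

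All 17 measured genes of the ovarian soma and all 16 of steroid synthesis did not pass (medians -0.13 and 0.05). At an unadjusted p below 0.05, 2 ovarian soma genes were higher and 0 lower, and of the steroid genes 1 was higher and 1 lower, beside 6.94% and 7.02% of all rows. The aromatase gene cyp19a1a, which makes estrogens, had 4.55, 5.04 and 8.43 in morphants, against 4.73, 5.13 and 6.94 in wild type (0.10 ± 0.35, adjusted p = 0.932). Morphant array 2 held the 8.43, and the next array had 5.54. The ovarian transcription factor foxl2a had 4.25 to 7.92 in morphants and 4.94 to 8.09 in wild type (-0.73 ± 0.42, adjusted p = 0.457). Its difference was 0.12 among numbers 1 to 12 and -1.68 from 13 onward. The signalling gene wnt4 had 8.04 to 9.53 in morphants and 6.51 to 8.63 in wild type (0.95 ± 0.26, adjusted p = 0.095). The cholesterol importer star differed by 1.70 ± 0.73 (adjusted p = 0.297) and cyp17a1, an enzyme of androgen synthesis, by -1.01 ± 0.39 (adjusted p = 0.234). Without morphant array 3, which held 8.83, cyp17a1 was called (-1.39, adjusted p = 0.0188).

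Single genes of myeloid cells rose, while the lists they belong to held 1 call each. In the list of macrophage and myeloid genes 1 of 23 rose, 0 fell and 22 did not pass, with a median of 0.46, 22 of 23 differences above 0 and 8 members higher at an unadjusted p below 0.05, against 6.94% of all rows. The median was 0.17 among numbers 1 to 12 and 0.60 from 13 onward. The riser was irf8, a transcription factor that macrophage formation in zebrafish needs. Its morphant arrays had 6.56, 8.20 and 10.60 as lowest, median and highest, against 5.17, 5.75 and 7.15 in wild type, with 8 of 9 above every wild-type array (2.41 ± 0.38, adjusted p = 0.00323). It was 2.35 among numbers 1 to 12 and 2.48 from 13 onward. The macrophage gene mpeg1.1 spanned 9.20 to 12.04 in morphants and 7.42 to 11.16 in wild type (0.81 ± 0.41, adjusted p = 0.383).

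In the neutrophil list 12 of 14 differences lay above 0. At an unadjusted p below 0.05 in limma 5 of 14 members were higher and 0 lower, against 6.94% and 7.02% of all rows. By adjusted p 1 of 14 rose and 13 did not pass (median 0.47, with 0.17 among numbers 1 to 12 and 0.81 from 13 onward). The riser was cyba, a membrane subunit of the oxidase that phagocytes use to kill microbes, with 10.51, 10.999 and 12.02 in morphants, against 9.14, 9.66 and 10.45 in wild type. The groups did not overlap, and the difference was 1.31 ± 0.20 (adjusted p = 0.00296). The granule genes lyz (1.101 ± 0.40) and mpx (0.55 ± 0.25) had adjusted p-values of 0.209 and 0.335. Both irf8 and cyba kept their calls with the pair averaged and in all 23 fits that left out 1 array.

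The other immune lists held 1 rise each or none. At an unadjusted p below 0.05 in limma, 7 of 24 cytokine and chemokine genes and 7 of 28 interferon response genes were higher. So were 4 of 21 antigen presentation genes, beside 6.94% of all rows. Lower at that threshold were 0, 1 and 1 genes of these lists, beside 7.02%. Of the cytokine and chemokine differences 20 of 24 lay above 0 (median 0.30). Above 0 were 17 of 28 interferon response differences (median 0.09) and 13 of 21 of antigen presentation (median 0.15). On the mean of the cytokine and chemokine list 7 of 9 morphant arrays lay above every wild-type array. On the means of the interferon and antigen presentation lists 3 of 9 did so each. The interferon mean had a median of 7.30 in morphants and 7.29 in wild type. Of 21 antigen presentation genes mhc1zca rose on the row zgc:136614 (10.53 to 12.07 in morphants, 9.39 to 11.09 in wild type, 1.06 ± 0.20, adjusted p = 0.0146). A second row for mhc1zca, zgc:111893, differed by 0.25 (adjusted p = 0.6255), and class I genes of this kind have close copies that a probe may not separate. Of 24 cytokines and chemokines ccl27a (listed as ccl1) rose by 2.27 ± 0.54 (9.25 to 11.97 in morphants, 5.44 to 10.72 in wild type, adjusted p = 0.0484). Of 28 interferon response genes mxc, an antiviral GTPase, rose by 2.02 ± 0.48 (9.23 to 13.11 in morphants, 6.97 to 10.51 in wild type, adjusted p = 0.0496). With the pair averaged ccl27a and mxc had an adjusted p of 0.0706 and 0.0883, and they lost their calls in 19 and 20 of 23 fits that left out 1 array. Among 19 lymphocyte genes 0 passed (median 0.27, with 2 higher at an unadjusted p below 0.05 in limma), and 0 of 18 complement genes (median -0.26, with 0 at that unadjusted p).

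The cytokine gene il34, a ligand of the macrophage growth factor receptor, had the largest called rise on the array, on 1 of its 2 rows. That row spanned 4.31 to 14.25 in morphants and 4.005 to 8.20 in wild type (4.19 ± 0.94, adjusted p = 0.042), and it was not called with the pair averaged (adjusted p = 0.0842). The other row, si:ch211-239j19.3, spanned 7.79 to 10.00 in morphants and 6.35 to 10.73 in wild type (0.25 ± 0.38, adjusted p = 0.813), and its higher mean made it the row of the gene. The rows of il34 therefore disagree, and the gene was named after its values were seen.

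**Figure D3:**
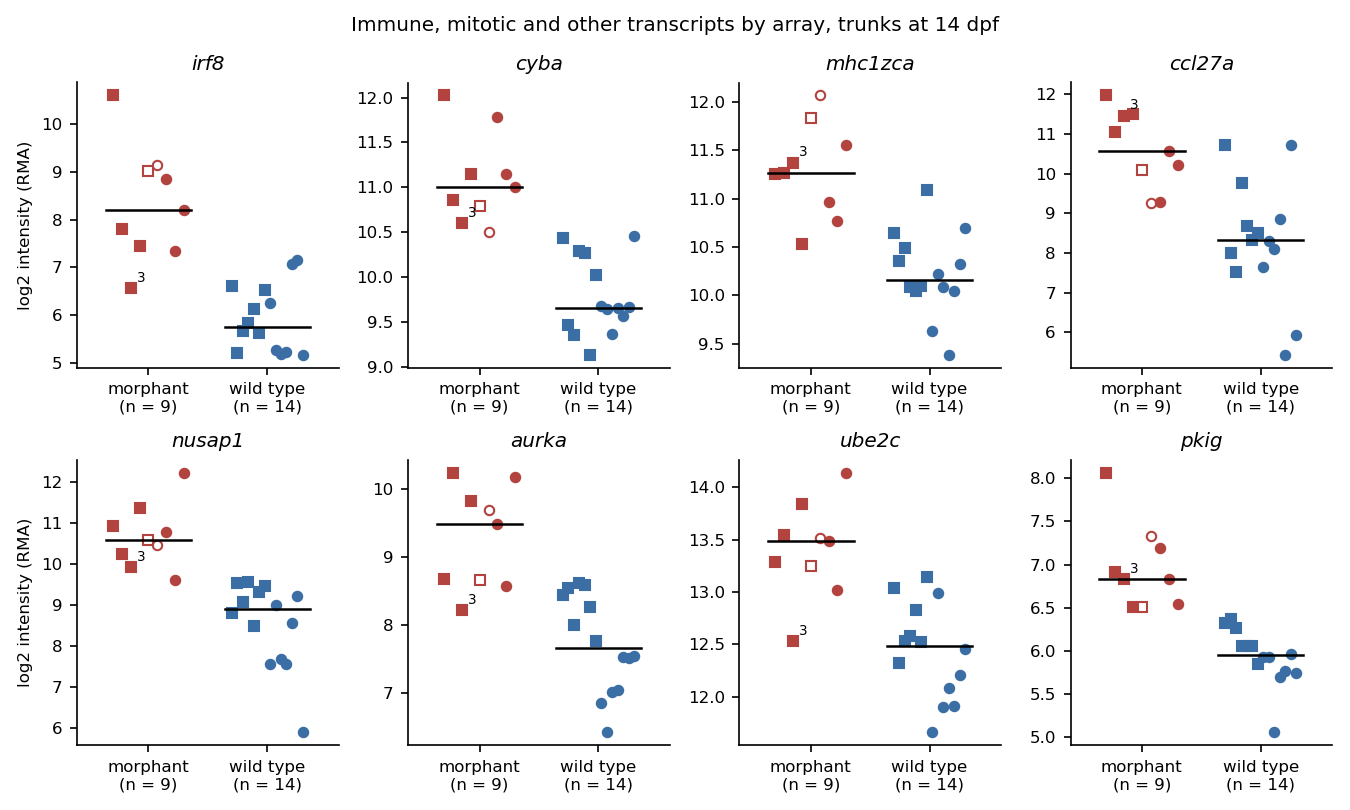
Log2 intensity (RMA) of 8 transcripts called higher in morphants on each array of 14 dpf, morphants (n = 9) left and wild type (n = 14) right, with symbols for title number groups (squares up to 12, circles from 13), open symbols for morphant arrays 5 and 13, a label on array 3 and a bar at each group's median. The groups do not overlap for cyba, nusap1 and pkig. For aurka all wild-type circles lie below all wild-type squares.

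Genes of mitosis lay above 0 nearly throughout. Calls were made for 3 of 31 measured members, all rises, with a median of 0.78, 30 of 31 differences above 0 and 20 members higher at an unadjusted p below 0.05, against 6.94% of all rows. The spindle protein gene nusap1 had 9.62, 10.58 and 12.23 in morphants as lowest, median and highest, against 5.90, 8.91 and 9.57 in wild type. The groups did not overlap, and the difference was 2.13 ± 0.39 (adjusted p = 0.0123). The kinase gene aurka, which acts at the spindle poles, had 8.22, 9.48 and 10.24 in morphants, against 6.42, 7.65 and 8.62 in wild type (1.56 ± 0.30, adjusted p = 0.0186). The gene ube2c, an enzyme of cyclin breakdown, had 12.53, 13.49 and 14.14 in morphants, against 11.66, 12.49 and 13.14 in wild type (0.96 ± 0.20, adjusted p = 0.0285). The call of ube2c was lost with the pair averaged (adjusted p = 0.0541) and without morphant array 1, 4, 13, 14 or 16 (at most 0.0641).

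The number groups differed in these genes. The difference of aurka was 0.81 among numbers 1 to 12 and 2.35 from 13 onward, that of nusap1 1.44 and 2.84, and that of ube2c 0.58 and 1.36. The median of the mitosis list was 0.54 and 1.24. On a mean over the 31 members, the morphant arrays had 9.23, 9.77 and 10.64 as lowest, median and highest, against 8.34, 9.09 and 9.60 in wild type, and 5 of 9 morphant arrays lay above every wild-type array. With the number group as a block aurka and nusap1 kept their calls (adjusted p = 0.0133 and 0.00917). The part of the number group in the differences was not tested.

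Genes of DNA replication lay on the other side. At an unadjusted p below 0.05 in limma 10 of 34 members were lower and 1 higher, against 7.02% and 6.94% of all rows. By adjusted p 2 of 34 fell, 0 rose and 32 did not pass (median -0.34, 28 of 34 below 0). The falls were those of mcm7, a subunit of the replicative helicase (8.30 to 10.57 in morphants, 9.49 to 11.55 in wild type, -1.21 ± 0.28, adjusted p = 0.0473), and orc2, a subunit of the origin recognition complex (8.97 to 10.92 in morphants, 10.61 to 11.73 in wild type, -0.98 ± 0.22, adjusted p = 0.0413). Both calls were lost with the pair averaged (adjusted p = 0.0883 and 0.0744) and in 19 and 14 of 23 fits that left out 1 array. A second, dimmer row of orc2 differed by -0.45 (adjusted p = 0.361).

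A list of ribosome biogenesis genes was written after values had been seen, since such genes stood among the falls, so its count describes only what led to it. Of 85 measured members 6 fell, 0 rose and 79 did not pass, beside 0.438% of all rows called lower. The median was -0.41, and 80 of 85 lay below 0, beside 16124 of 31475 rows. At an unadjusted p below 0.05 in limma 40 of 85 were lower and 0 higher, beside 7.02% and 6.94% of all rows. The largest fall was that of nop9, which acts in the maturation of the small ribosomal subunit. The row (loc100332577) had 10.52, 11.24 and 11.51 in morphants as lowest, median and highest, against 10.83, 12.52 and 13.01 in wild type (-1.24 ± 0.23, adjusted p = 0.0144). The gene bop1, which acts in making the large subunit, had 8.30 to 9.89 in morphants and 9.53 to 10.86 in wild type (-0.95 ± 0.19, adjusted p = 0.0186). These genes, nop9 and bop1, were the members still called with the pair averaged. The others were bxdc2 (-0.93), pus7 (-0.90), pwp1 (-0.65) and bysl (-0.59), whose adjusted p-values of 0.0449 to 0.0457 became 0.0763 to 0.0842 with the pair averaged. Each of these 4 lost its call in 16 to 18 of 23 fits that left out 1 array. On a mean over the members, 8 of 9 morphant arrays were under the median of wild type.

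**Figure D4:**
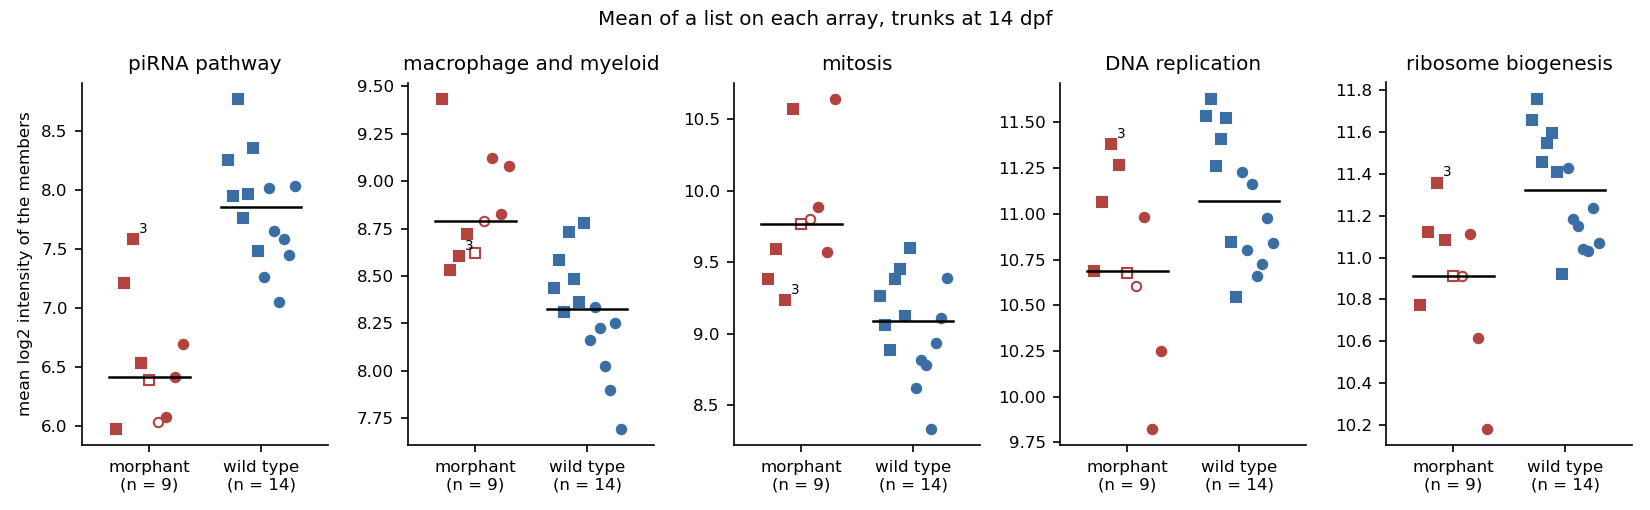
Mean log2 intensity of all measured members of 5 gene lists on each array of 14 dpf, morphants (n = 9) left and wild type (n = 14) right, with squares for title numbers up to 12, circles from 13, open symbols for morphant arrays 5 and 13, a label on array 3 and a bar at each group's median. The piRNA mean is highest among morphants on array 3, and for mitosis 5 morphant arrays lie above all wild-type arrays.

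Further rises that were called with and without averaging of the pair came from genes of mixed roles. The gene pkig, an inhibitor of protein kinase A, had 6.51, 6.83 and 8.06 in morphants, against 5.06, 5.95 and 6.37 in wild type, without overlap (1.03 ± 0.18, adjusted p = 0.00912). The gene fxyd6l, of a family of sodium pump regulators, had 12.96 to 13.52 in morphants and 12.14 to 12.84 in wild type, also without overlap (0.57 ± 0.11, adjusted p = 0.0213), and was not called without morphant array 13 (adjusted p = 0.0523). The proline dehydrogenase gene prodhb rose by 1.71 ± 0.33 (adjusted p = 0.018) and the RNA-binding protein gene mex3b by 1.30 ± 0.25 (adjusted p = 0.0161). The forkhead gene foxq2 differed by 0.69 ± 0.16 (adjusted p = 0.0494) on values between 4.23 and 6.20, at the dim end of the scale, and lost its call in 21 of 23 fits that left out 1 array (at most 0.0998).

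Stress and metabolic lists held 1 call each or none. Of 25 genes of oxidative and heat stress hmox1a, the heme oxygenase, rose (8.35 to 11.39 in morphants, 5.77 to 8.77 in wild type, 1.97 ± 0.43, adjusted p = 0.0345), with 0.93 among numbers 1 to 12 and 3.08 from 13 onward. With the pair averaged hmox1a had an adjusted p of 0.0604, and it lost its call in 8 of 23 fits that left out 1 array. Of 24 genes of cholesterol synthesis idi1, an isomerase of the isoprenoid branch, fell by 0.70 ± 0.16 on the log2 scale (adjusted p = 0.0449), and the call was lost with the pair averaged (0.0842). The median of the cholesterol list was 0.18 among numbers 1 to 12 and -0.73 from 13 onward. All 24 p53 response genes did not pass (4 higher and 1 lower at an unadjusted p below 0.05, against 6.94% and 7.02% of all rows), with gadd45aa at 1.75 ± 0.49 (adjusted p = 0.0987). All 48 hox genes did not pass either, although 41 of 48 lay above 0 (median 0.40, and 0.38 with the pair averaged). At an unadjusted p below 0.05 in limma 21 were higher, against 6.94% of all rows. They were led in p by hoxc10a at 1.39 ± 0.34 (adjusted p = 0.0576). For hoxc10a 5 of 9 morphant arrays lay above every wild-type array, and the gene was called without morphant array 3 or 4 or wild-type array 12 or 17 (adjusted p of 0.0329 at the lowest).

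Markers of other tissues were measured for the makeup of the trunks. No member passed the limma test in the lists of skeletal muscle (24), blood (18), exocrine pancreas (20), liver (20), intestine (16), kidney (20), epidermis (22), bone and cartilage (20), nervous tissue (22), adipose tissue (19), endothelium (19), retinoic acid (24) or egg yolk and estrogen response (13). Their medians lay between -0.39 for liver and 0.89 for exocrine pancreas. The pancreas median was the highest of any list here, with 19 of 20 differences above 0. The pancreas mean was 7.34 to 11.36 on morphant arrays and 6.97 to 10.49 on wild-type arrays. At an unadjusted p below 0.05 the most members were 4 of 22 lower in epidermis, and 3 of 18 higher in blood and 3 of 24 in muscle, beside 6.94% of all rows higher and 7.02% lower. Between the number groups the liver median was -0.77 (1 to 12) and 0.04 (13 onward), and the blood median 0.42 and 0.06. The liver mean was 6.37 to 7.76 on morphant arrays and 6.40 to 12.30 on wild-type arrays, with wild-type array 10 at the top. The epidermis mean was 10.47 and 10.58 on morphant arrays 5 and 13, against 11.51 to 12.39 in wild type. The part of these markers in other differences was not tested.

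Germ cell genes were lower at 22 dpf too, and most oocyte genes were lower there. Of the 138 rows called lower at 14 dpf, 70 were also called lower at 22 dpf in a fit of all 47 arrays, where 911 rows were lower (2.89%). Of the 57 called higher, 4 were also called higher at 22 dpf, where 186 were higher (0.591%). The counts of 138 and 57 came from the fit of the 14 dpf arrays alone, so they cannot be set directly beside those of 22 dpf. In the fit of all 47 arrays 362 rows were higher and 418 lower at 14 dpf, beside 186 and 911 at 22 dpf. The effects of the ages differed on 203 rows (0.645%), of which 9 were among the 138 falls and 7 among the 57 rises. Those falls and rises were picked by the same 14 dpf values that enter this contrast. Their counts therefore cannot be judged against the share of all rows. In the piRNA list 13 of 19 members fell at 22 dpf (median -2.66) and 0 of 19 effects differed between ages. The difference of smc1b was -4.60 ± 0.55 at 22 dpf (14 minus 22 dpf: -0.04 ± 0.78, adjusted p = 0.992), and that of ddx4 was -4.19 ± 0.56 (1.35 ± 0.80, adjusted p = 0.555).

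For the oocyte list 19 of 23 members fell at 22 dpf with a median of -3.52, and the effects differed between ages for 8 of 23. They were zp2.2, zp3, zp3.2, zp3b and zpcx of the egg coat, the transcription factors figla and lhx8a, and zar1. For zp3 the effect at 14 minus that at 22 dpf was 4.44 (adjusted p = 0.0143), for figla 3.75 and for zar1 3.55 (adjusted p = 0.013 each). The aromatase gene cyp19a1a was lower by 2.37 at 22 dpf and its effects differed by 2.46 (adjusted p = 0.0282). The effects of nanos3 lay on opposite sides of 0, 0.92 at 14 dpf and -1.04 at 22 dpf, and differed by 1.96 ± 0.42 (adjusted p = 0.0153).

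Rises at 14 dpf that differed from the later age included irf8 and aurka. For irf8 the difference at 22 dpf was 0.11 ± 0.34 (14 minus 22 dpf: 2.299 ± 0.50, adjusted p = 0.0153), and for aurka -0.97 ± 0.38 (2.53 ± 0.55, adjusted p = 0.0153). The effects of ube2c, hmox1a and foxq2 differed by 1.40, 2.27 and 1.32, and that of the ribosome biogenesis gene pwp1 by -0.84. The median of the mitosis list was -0.45 at 22 dpf, and the effects of 3 of its 31 members differed between ages. For cyba (0.54 at 22 dpf, adjusted p of the difference = 0.196) and nusap1 (0.14, adjusted p = 0.111) no difference between ages was shown.

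**Figure D5:**
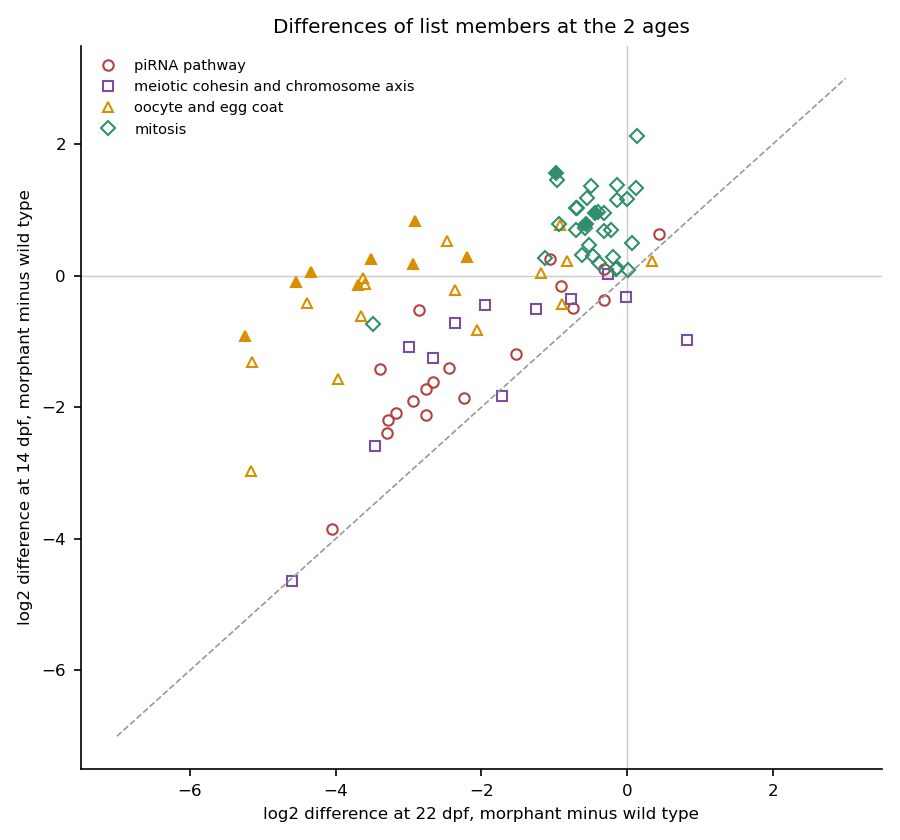
Morphant minus wild-type difference (log2) at 14 dpf on the vertical axis against that at 22 dpf on the horizontal axis, for the measured members of 4 gene lists. Filled symbols are members whose effects differed between ages, the dashed line marks equal differences. No piRNA or chromosome axis member is filled, 3 mitosis members are, and the 8 filled oocyte members lie between -5.24 and -2.19 on the horizontal axis.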

How the data were processed

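Trunk RNA was amplified as a whole transcriptome, labelled with Cy3 and hybridised to NimbleGen arrays, per the labels' protocols. The values are log2 intensities that the authors deposited, made with RMA (background correction, normalization between arrays and summary of probes) per the submitters' processing notes, in a version not given in the sources used here. The ages had different lower quartiles, so only differences within an age were used. Rows were named through RefSeq's zebrafish gene table: 22574 of 31475 rows had 1 gene, 86 several and 8815 none. For a gene with several rows the one with the highest average over the 23 arrays was used. The test was limma 3.58.1 in R 4.3.3 on the 23 arrays of 14 dpf (21 residual degrees of freedom), tested on simulated data, and the difference between ages came from all 47 arrays (43 residual degrees of freedom).

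Named are up to 15 rises and 15 falls, the largest among genes called with and without averaging of arrays 5 and 13 (only 10 rises qualified), each called list member (in a list without one, the 2 members with the smallest p) and a set of key genes. The members, lists and key genes were chosen with earlier results of these data known. Replicate numbers are not shared between the groups, so no pairing was checked. Alternatives were other samples, centring, weights, a filter, the number group as a block, and an intensity trend with a robust prior in limma.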

Additional observations from a re-analysis of the deposited data

Results flagged for a closer look

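Among 109 named genes, 13 values of a morphant array stood apart from the other 8 of the group by Dixon's test (the gap to the nearest array set against the range). Chance alone marks about 1 in 20 groups of normally distributed values. Dim values need not follow that distribution, and the genes share the same arrays, so the rate is only a rough guide. Of these, 7 lay on array 3, each of them high: smc1b at 9.64 (nearest array 7.09), ddx4 at 10.92 (7.998), hormad1 at 8.07 (6.25), dazl at 6.18 (5.38), piwil1 at 7.98 (6.27), cyp17a1 at 8.83 (5.93) and foxl2a at 7.92 (5.91). Array 2 was high for zar1 at 7.20 and cyp19a1a at 8.43, and low for lipea at 7.97. Array 4 was high for itih2 at 7.20 and lin28ab at 6.58, and array 16 was low for bysl at 12.70.

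For 11 named genes the morphant effect at 14 dpf differed from that at 22 dpf in the limma contrast of the 4 groups. The effect at 14 minus that at 22 dpf was 4.44 for zp3, 3.75 for figla, 3.55 for zar1, 2.53 for aurka, 2.46 for cyp19a1a, 2.299 for irf8, 2.27 for hmox1a, 1.96 for nanos3, 1.40 for ube2c, 1.32 for foxq2 and -0.84 for pwp1.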

How the results depend on the processing

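The 195 calls (57 higher, 138 lower) became 780 (362 and 418) with all 47 arrays, 82 (11 and 71) with arrays 5 and 13 averaged, 328 (117 and 211) for rows with a mean of at least 6, and 326 (133 and 193) with array weights. They became 3 (0 and 3) among numbers 1 to 12 and 84 (34 and 50) from 13 onward, with fewer arrays each. Centring gave 95 higher and 109 lower, and moved the median of all rows to 0.04. With the number group as a block there were 248 calls (71 and 177), and with an intensity trend and robust prior 254 (83 and 171). Leaving out 1 array gave 79 (morphant array 1) to 327 calls (wild-type array 12), 13 to 116 higher and 63 to 211 lower. The total moved by over 1.5 times without morphant array 1 (79), 5 (87), 13 (86), 14 (87) or 16 (100), and without wild-type array 7 (115), 12 (327), 18 (99), 19 (97), 20 (121) or 21 (126). The causes were not tested. The difference between ages gave 203 rows, 149 with the pair averaged and 216 after centring.

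Genes that were not called changed sign: among numbers 1 to 12 foxl2a (0.12), zar1 (0.11), zp3 (0.025) and amh (-0.019), from 13 onward bmp15 (0.069) and cyp19a1a (-0.41), and with array weights cyp19a1a (-0.10). Without 1 array zp3 ranged from -0.21 to 0.078, amh from -0.065 to 0.19, gdf9 from -0.16 to 0.15 and cyp19a1a from -0.29 to 0.22. With the pair averaged 13 named genes lost their call, after centring 7, and with the number group as a block 1. Among numbers 1 to 12 alone 46 lost it and from 13 onward 41, with fewer arrays each. Many of the 109 named genes had no call to lose, so these counts are not shares of 109. No paired analysis was possible because the compared groups share no replicate number. Dim rows and the number of arrays limit what could be called.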

Other observations

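Called genes outside the lists were chosen here after their values were seen. Among the falls, eif4e1b, the oocyte form of a cap-binding translation factor, had 4.64 to 6.28 in morphants and 5.54 to 9.71 in wild type (-2.31 ± 0.46, limma adjusted p = 0.0213). The gene tbpl2, a TATA-binding protein of oocytes, had 4.69 to 6.36 in morphants and 5.46 to 8.05 in wild type (-1.62 ± 0.31, limma adjusted p = 0.0169). Among the rises, the muscle genes trim63a, a ubiquitin ligase (1.75 ± 0.38), and cav4b, a caveolae component (1.11 ± 0.24), both had a limma adjusted p of 0.0351 (0.0754 and 0.0763 with arrays 5 and 13 averaged), while 0 of 24 genes of the skeletal muscle list passed and 3 were higher at an unadjusted p below 0.05 (6.94% of all rows).

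The receptor gene notch2 rose by a small amount without overlap, with 13.75, 13.81 and 13.95 in morphants as lowest, median and highest, against 13.21, 13.46 and 13.58 in wild type (0.41 ± 0.09, limma adjusted p = 0.0449, and 0.0754 with that pair averaged). The gene irg1l, which macrophages and skin use in inflammation, had 5.22, 9.98 and 12.36 in morphants, against 4.84, 5.62 and 6.85 in wild type (3.32 ± 0.72, limma adjusted p = 0.0351, and 0.0754 with the pair averaged).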
